A study of Mus musculus with 6 samples.

Results

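Cd68, Clec7a, Cd180, Naip2, Mefv and Mcoln3 are 6 mouse genes of macrophages and of innate sensing, each read here by 1 probe. They were selected on the study's list of 357 mRNA probes that differed between the diets, by at least 2-fold and a p-value limit, and are 6 of the 278 genes which that list names, so these same 6 arrays and this same contrast chose them. Their diet differences below are therefore given as a description, with an error and without a test. The array carried 39430 mRNA probes, and 29340 of these, all 6 member probes among them, passed the detection filter, which asked for a signal well above background on all 3 arrays of 1 diet or of both.

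The samples were aortas of male mice, homozygous apoE(-/-) on a C57BL/6 background, 3 in each diet group and 1 aorta per array. The normal diet group was fed normal chow. The high-fat diet group was fed a high-fat, high-cholesterol diet with 20% fat and 2.5% cholesterol, and both diets lasted 8 weeks. The mice of both groups lacked apolipoprotein E, a deletion that gives atherosclerosis without a special diet, so the normal diet group is no lesion-free control. The age of the mice was not given in the sources used here.

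Macrophages gather in the atherosclerotic artery wall, take up modified lipoproteins and digest them in lysosomes. They carry surface receptors and cytosolic sensors that recognise products of microbes and of damaged tissue, and some of these sensors assemble inflammasomes, the complexes that activate caspase-1 and interleukin-1 beta. The members fall into 3 roles of this system. Clec7a and Cd180 are surface receptors, Naip2 and Mefv are cytosolic sensors, and Cd68 and Mcoln3 are proteins of the endosome and lysosome.

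The probes are shown because every value of a member below is the signal of 1 of these oligonucleotides. They are printed 5′ to 3′ as the scanner output gives them, and no part is in capitals.
Cd68: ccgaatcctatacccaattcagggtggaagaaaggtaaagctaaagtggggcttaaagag
Clec7a: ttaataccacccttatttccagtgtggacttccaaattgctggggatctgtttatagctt
Cd180: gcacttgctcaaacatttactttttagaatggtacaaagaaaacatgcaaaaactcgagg
Naip2: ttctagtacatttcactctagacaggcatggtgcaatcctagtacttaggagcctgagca
Mefv: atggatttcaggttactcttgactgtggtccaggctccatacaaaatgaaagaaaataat
Mcoln3: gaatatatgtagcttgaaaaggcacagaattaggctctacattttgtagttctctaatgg

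Each probe has 60 bases, and the GC content was 45.0% for Cd68 and Naip2, 40.0% for Clec7a, 36.7% for Mefv and 35.0% for Cd180 and Mcoln3. Among the 91188 probes of the array, no other probe shared a run of more than 16 bases with a member probe on either strand. A run of 16 bases was shared by 2 other probes with Cd68 and by 2 with Cd180. The scanner output lists these probes with no genome position, so their place in the transcript is not given here. Of 32851 RefSeq promoter windows, 2 share a run of 16 bases with the Naip2 probe, which holds for no other member. The genes of these windows are not named here. Naip2 belongs to a family of closely similar genes. Whether the Naip2 probe also binds RNA of the other Naip genes, or of other transcripts that share such a run, was not tested.

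Each array held 143286 spots, and none was saturated. Normal diet replicates 1 and 3 lay on slide 1, and normal diet replicate 2 and the 3 high-fat diet arrays lay on slide 2. Negative control spots had a mean net signal of 31.6 and 32.2 for the arrays of slide 1 and of 13.1 to 13.8 for those of slide 2. Of all probes, 64.4% and 62.6% were well above background on the arrays of slide 1 and 72.4% to 76.0% on those of slide 2. The median processed signal was highest in high-fat diet replicate 2, at 35.5, against 23.1 to 28.9 on the other arrays. Since the diets are split unevenly over the slides, each member is also given against normal diet replicate 2 alone, the only normal diet array on the slide of the high-fat diet arrays. A fit with the slide as a block gives this same difference, because slide 1 held no high-fat diet array, so it is no separate check. Levels below are log2 signals after quantile normalization, and they are compared between arrays for 1 probe, never between probes.

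Of all 29340 mRNA probes tested, 649 were higher on the high-fat diet by at least 2-fold with an unadjusted limma p of at most 0.05, or 2.21%, and 227 were lower. The methods' t-test gave 210 higher and 148 lower, and limma on probes detected on all 6 arrays gave 278 and 195, so the excess of higher over lower depended on the test and the filter. With the slide as a block, 704 were higher, or 2.4%. After Benjamini-Hochberg adjustment 1 mRNA probe was under 0.05, and 0 were so with the slide as a block, where 2859 had an unadjusted p under 0.05. The adjusted count depended on normal diet replicate 2, since 3048 mRNA probes were under 0.05 in the limma fit that left this array out. That fit has all its normal diet arrays on slide 1 and all its high-fat diet arrays on slide 2. Diet and slide cannot be told apart in it. All 6 members were higher in all 3 high-fat diet arrays than in any normal diet array, a separation found for 10.7% of the mRNA probes and fixed in part by how the members were chosen. The median log2 difference was 2.11 over the members and 0.04 over all mRNA probes tested. For 3 of the members, Cd180, Naip2 and Mcoln3, the normal diet level is only a bound, as described below, and with these at their bound the median over the members was 1.05.

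**Figure D1:**
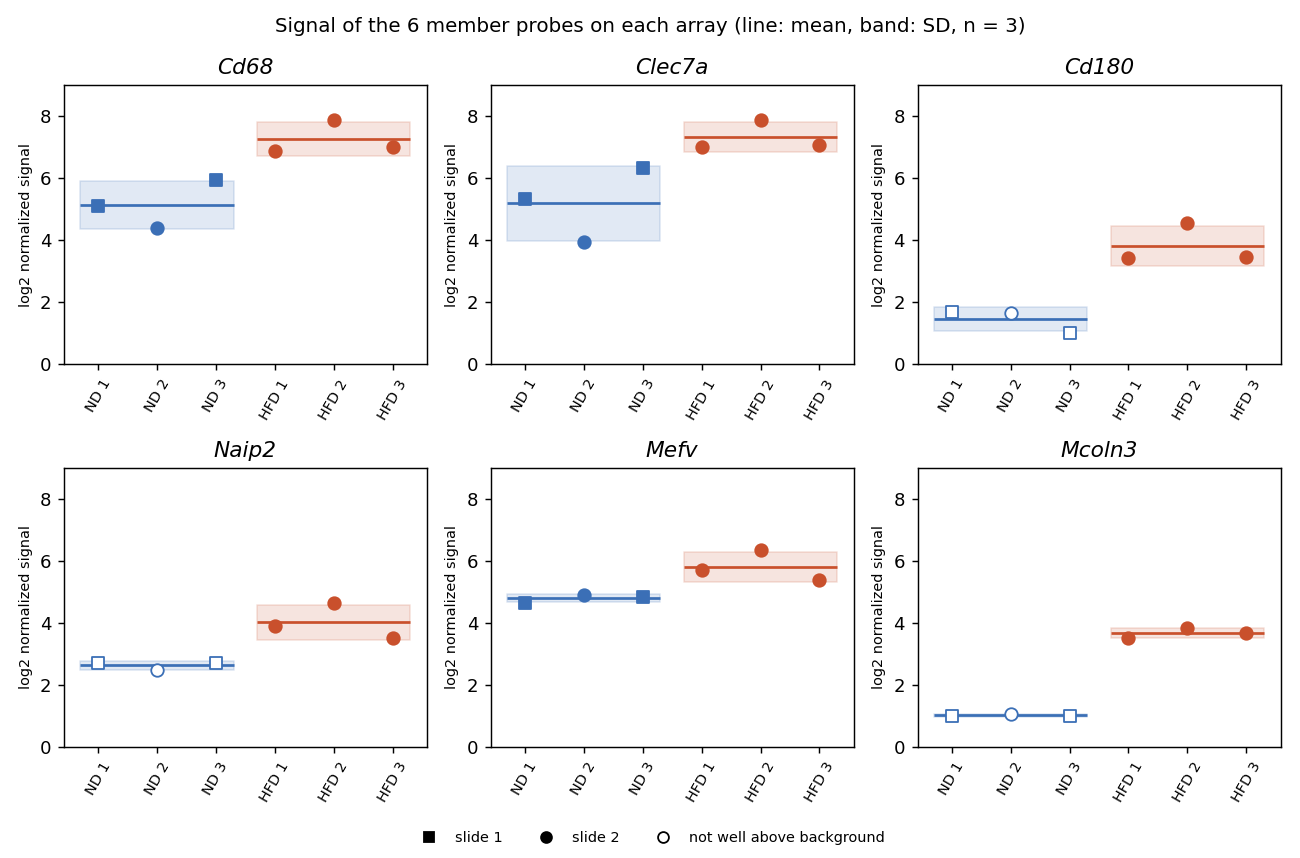
Log2 normalized signal (y axis) of each member probe on the 3 normal diet (ND, blue) and 3 high-fat diet (HFD, red) arrays. Lines and bands are the mean and SD of 3 arrays, squares are slide 1, circles are slide 2, and open symbols are arrays where the probe was not well above background. All high-fat diet points lie above all normal diet points of the same probe, and Cd180, Naip2 and Mcoln3 are open on all 3 normal diet arrays.

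Clec7a encodes dectin-1, a C-type lectin receptor for beta-glucans of fungal walls. Its log2 signal was 5.31, 3.93 and 6.33 in normal diet replicates 1, 2 and 3, and 7.02, 7.87 and 7.05 in the high-fat diet replicates. Normal diet replicate 2 was the lowest array and high-fat diet replicate 2 the highest, and the diets did not overlap. The mean was 5.19 ± 1.21 on the normal diet and 7.31 ± 0.48 on the high-fat diet (SD, n = 3 each). The log2 difference was 2.12 with an SE of 0.58, or 4.34-fold.

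The normal diet arrays of Clec7a spanned 2.40 on the log2 scale, the widest span of the members in either diet. The mean of the slide 1 arrays of the normal diet was 1.89 above that of normal diet replicate 2, while the median of this gap over all mRNA probes was 0.08. Against normal diet replicate 2 alone, the log2 difference of Clec7a was 3.38, and the single high-fat diet arrays lay 3.09 to 3.94 above it. With normal diet replicate 2 left out, the log2 difference came to 1.49, a comparison in which diet and slide coincide. The slide and the spread between animals cannot be told apart for this gap, with 1 normal diet array on slide 2.

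Cd180 encodes RP105, a Toll-like receptor relative of B cells and myeloid cells that modulates the response to lipopolysaccharide. Its log2 signal was 1.69, 1.67 and 1.02 in the normal diet group and 3.42, 4.55 and 3.45 in the high-fat diet group. Normal diet replicate 3 lay below the other normal diet arrays, though none of these was well above background, high-fat diet replicate 2 stood above the other 2 of its group, and the diets did not overlap. The measured means were 1.46 ± 0.38 and 3.81 ± 0.64 (SD, n = 3 each), a log2 difference of 2.35 with an SE of 0.35.

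The Cd180 probe was well above background on 0 of 3 normal diet arrays and on 3 of 3 high-fat diet arrays, so its normal diet level is only a bound. On each array a bound was set at the lowest signal of any probe well above background there, and it replaced a lower signal of the dim probe. By this bound Cd180 was at least 1.85-fold higher in the high-fat diet group. The bound is not strict, because probes not well above background also reached log2 signals up to 3.48 to 4.37 on the normal diet arrays. In normal diet replicates 1 and 3 they reached 4.23 and 4.37, above the high-fat diet means of Cd180, Naip2 and Mcoln3. The folds given by this bound, here and below, therefore hold only for the bound as set. Against normal diet replicate 2 alone, the log2 difference of the measured signals was 2.14, and with high-fat diet replicate 2 left out it came to 1.98.

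Among the cytosolic sensors, Naip2 encodes an inflammasome receptor that recognises the rod protein of bacterial type III secretion systems and engages Nlrc4. Its log2 signal was 2.71, 2.47 and 2.70 in the normal diet group and 3.89, 4.63 and 3.52 in the high-fat diet group. High-fat diet replicate 2 was the highest array, and the lowest high-fat diet array lay 0.81 above the highest normal diet array. The measured means were 2.63 ± 0.14 and 4.01 ± 0.56 (SD, n = 3 each), a log2 difference of 1.39 with an SE of 0.29.

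The Naip2 probe was well above background on 0 of 3 normal diet arrays and on 3 of 3 high-fat diet arrays, and by the same bound it was at least 2.13-fold higher in the high-fat diet group. On the normal diet arrays its mean spot signal was 49.0, 28.0 and 49.98 against a background of 42.9, 22.6 and 43.1. The excess over background was small but positive on all 3 arrays, and the scanner output marked it as positive and significant on each. The log2 difference was 1.54 against normal diet replicate 2 alone, and 1.08 once high-fat diet replicate 2 was left out.

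Mefv encodes pyrin, an inflammasome sensor that responds to loss of RhoA GTPase activity and is mutated in familial Mediterranean fever. Its log2 signal was 4.64, 4.89 and 4.84 in the normal diet group and 5.70, 6.33 and 5.38 in the high-fat diet group. The normal diet arrays spanned 0.25, the high-fat diet arrays spanned 0.95, and the groups were 0.49 apart at their nearest arrays. The means were 4.79 ± 0.13 and 5.80 ± 0.48 (SD, n = 3 each). The log2 difference was 1.01 with an SE of 0.26, or 2.02-fold.

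Mefv lay just inside the 2-fold limit of the list that chose it. Around that limit, 117 mRNA probes with an unadjusted p of at most 0.05 had a log2 difference of 1 to 1.1 and 143 had one of 0.9 to 1. Against normal diet replicate 2 alone the log2 difference of Mefv was 0.91. With high-fat diet replicate 2 left out it came to 0.75, and with normal diet replicate 1 left out it came to 0.94. With the slide as a block and with each array left out, the log2 differences of Cd68 and Clec7a, the other members well above background on all 6 arrays, stayed above 1.

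Among the endosomal and lysosomal proteins, Cd68 encodes macrosialin, a heavily glycosylated protein of late endosomes and lysosomes that is widely used to stain macrophages. Its log2 signal was 5.09, 4.38 and 5.94 in the normal diet group and 6.87, 7.87 and 7.00 in the high-fat diet group. As for Clec7a, normal diet replicate 2 was the lowest array and high-fat diet replicate 2 the highest, and the diets did not overlap. The means were 5.14 ± 0.78 and 7.25 ± 0.55 (SD, n = 3 each). The log2 difference was 2.11 with an SE of 0.44, or 4.32-fold.

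Against normal diet replicate 2 alone, the log2 difference of Cd68 was 2.87, with the single high-fat diet arrays 2.49 to 3.49 above it. With normal diet replicate 2 left out it came to 1.73, a comparison in which diet and slide coincide. With high-fat diet replicate 2 left out it came to 1.80. In whole aorta, more cells of a type and more RNA per cell cannot be told apart, so the Cd68 signal does not count macrophages. Cd68 was the only gene of the macrophage marker list whose probe could be named, and no defining marker of smooth muscle or endothelium could be named, so the tissue label was not checked against such markers.

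Mcoln3 encodes mucolipin-3, a cation channel of endosomes and lysosomes. On the normal diet arrays its mean spot signal was 36.3, 22.3 and 43.2 against a background of 42.0, 22.5 and 43.0, so the signal lay under the background on replicates 1 and 2 and 1.01 times as high on replicate 3, and on none was it marked as positive and significant. The software replaced the processed value by a surrogate on each of them, and the resulting log2 values of 0.99, 1.05 and 1.00 are not measured levels. On the high-fat diet arrays the mean spot signal was 32.7, 41.4 and 35.8 against a background of 21.9, 23.0 and 22.4, and the log2 signal was 3.50, 3.84 and 3.66.

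Mcoln3 was well above background on 3 of 3 high-fat diet arrays and on 0 of 3 normal diet arrays. The means were 1.01 ± 0.03, set by the surrogate values, and 3.67 ± 0.17 (SD, n = 3 each). The log2 difference of 2.66 with an SE of 0.17 rests on surrogate values in 1 of the groups, so neither its size nor its SE is compared with those of the other members. By the bound Mcoln3 was at least 1.68-fold higher in the high-fat diet group, or at least 2.26-fold against normal diet replicate 2 alone. Before the background was subtracted, the spot signal of Mcoln3 in normal diet replicate 3, on slide 1, was above that of all 3 high-fat diet arrays. On that unsubtracted scale the diets also overlapped for Cd180, Naip2 and Mefv, where 2, 2 and 1 of the high-fat diet arrays lay below the highest normal diet array, and they did not for Cd68 and Clec7a, as for 7.99% of the mRNA probes tested. The separation of the diets for these 4 members therefore rests on the background values as well as on the signals.

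**Figure D2:**
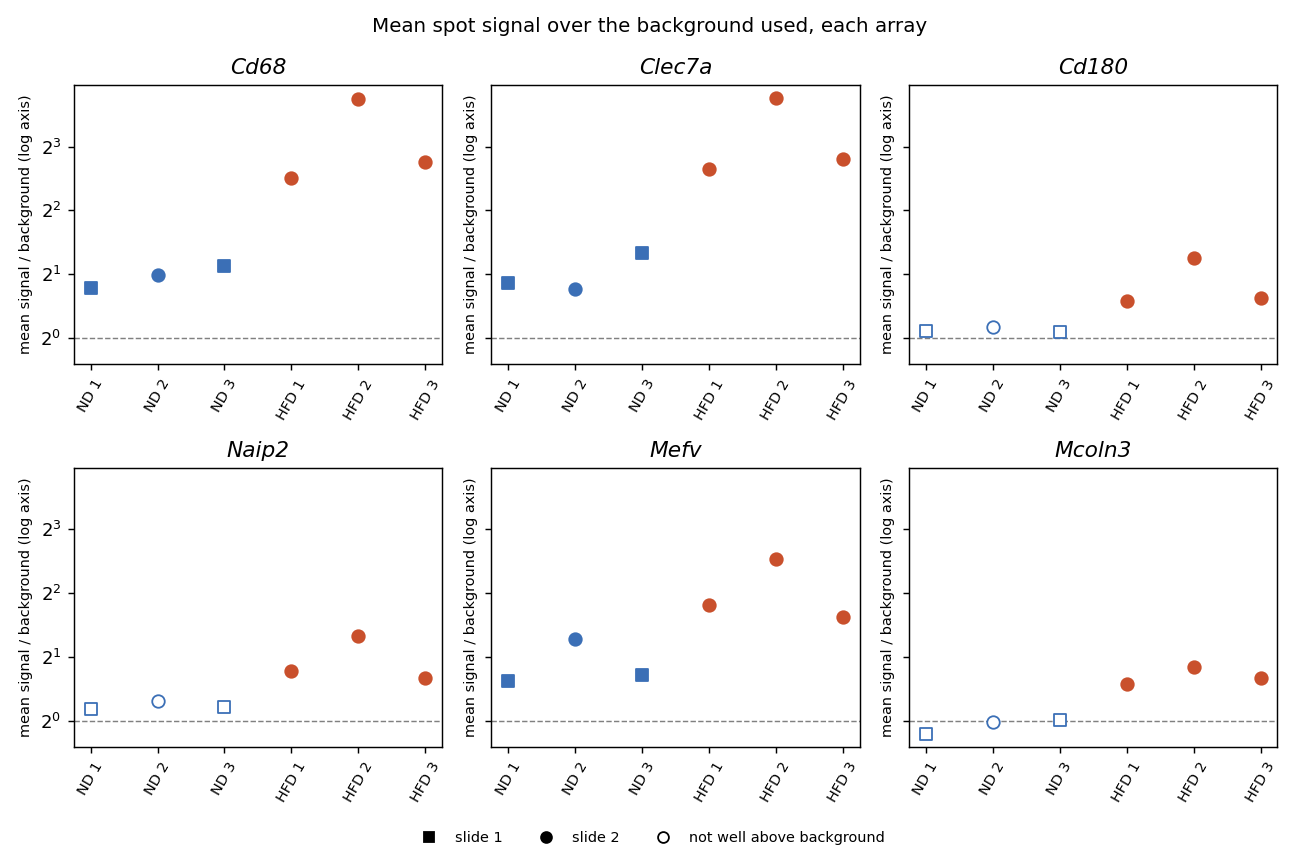
Mean spot signal divided by the background used for that spot (y axis, log scale) for each member on the 3 normal diet (ND, blue) and 3 high-fat diet (HFD, red) arrays, with squares for slide 1, circles for slide 2, open symbols where the probe was not well above background and a dashed line where signal and background are equal. Mcoln3 sits at the dashed line on the normal diet arrays, at 0.86, 0.99 and 1.01, and at 1.49 to 1.80 on the high-fat diet arrays, while Cd68 reached 13.4 in high-fat diet replicate 2.

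By detection the members split into 3 and 3. Cd68, Clec7a and Mefv were well above background on all 6 arrays, as were 87.4% of the mRNA probes tested. Cd180, Naip2 and Mcoln3 were well above background on all 3 high-fat diet arrays and on no normal diet array, a pattern of 0.968% of the mRNA probes tested. Dim on the normal diet, they could pass the detection filter only through the high-fat diet arrays. The lowest log2 signal well above background was 3.09 and 3.18 in normal diet replicates 1 and 3, and 2.07 to 2.49 on the slide 2 arrays. The part of this limit in the split was not tested. In the signal over background, Clec7a stood at 1.71 to 2.52 on the normal diet and 6.26 to 13.6 on the high-fat diet. Mefv stood at 1.54 to 2.43 and 3.07 to 5.78, Naip2 at 1.14 to 1.24 and 1.60 to 2.51, and Cd180 at 1.07 to 1.13 and 1.50 to 2.38. No member overlapped between the diets on this scale, where 31.1% of the mRNA probes tested did not overlap in the same direction and where the lower background of slide 2 enters the ratio.

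All 6 members were highest in high-fat diet replicate 2 among the arrays of that diet, a position held by 37.1% of the mRNA probes tested. That array exceeded the mean of the other high-fat diet arrays by 0.79 to 1.12 on the log2 scale for every member except Mcoln3, where it did so by 0.26. The median of this excess over all mRNA probes was 0.03. Normal diet replicate 2 was the lowest of its group for Cd68 and Clec7a and not for Mefv, the members well above background there, and for 44.5% of the mRNA probes. The part that signal strength or RNA quality had in these positions was not tested.

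**Figure D3:**
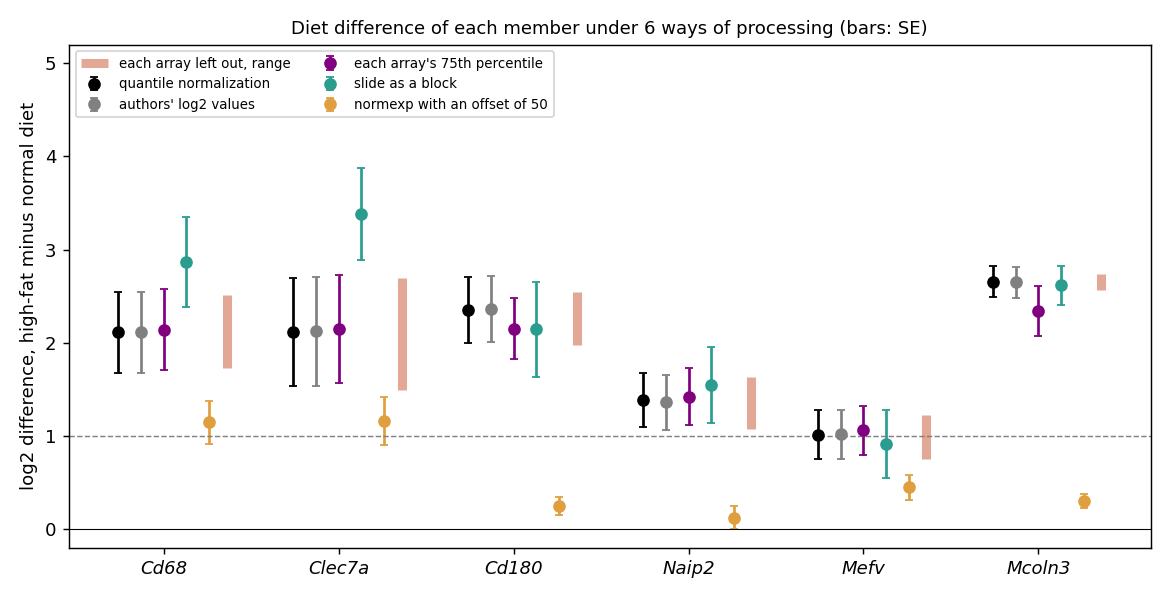
Log2 difference, high-fat minus normal diet (y axis), of each member after quantile normalization, in the authors' log2 values, after scaling by each array's 75th percentile, with the slide as a block and after normexp with an offset of 50, with bars for the SE, and the range over fits that each leave 1 array out. All values are above 0, that of Naip2 after normexp by no more than its SE, Clec7a runs from 1.16 to 3.38, and normexp gives 0.12 to 0.45 for Cd180, Naip2, Mefv and Mcoln3.

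With normexp and an offset of 50, the log2 difference was 1.15 for Cd68, 1.16 for Clec7a, 0.45 for Mefv, 0.30 for Mcoln3, 0.25 for Cd180 and 0.12 for Naip2. An offset of 50 exceeds most member signals on these arrays and so draws the log2 values together by construction. Under this setting 2 of 6 members were at least 2-fold higher, as were 0.61% of the mRNA probes tested. For Naip2 the difference of 0.12 was no larger than its SE of 0.12, and the diets overlapped, with high-fat diet replicate 1 below all 3 normal diet arrays. The diets did not overlap for the other 5 members, as for 10.7% of the mRNA probes tested under this setting. In the authors' log2 values the differences were 2.12 for Clec7a, 2.36 for Cd180, 1.36 for Naip2, 1.01 for Mefv, 2.11 for Cd68 and 2.65 for Mcoln3, close to those given above.

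The pattern over the 6 arrays was most alike between Cd68 and Clec7a, with a Pearson r of 0.98 and the same order of arrays. All r values here are descriptions over 6 arrays that share diet and slide, among probes chosen for a diet difference. With the mean of each diet removed, r was 0.97 for Cd68 with Clec7a, and 0.89 for Naip2 with Mefv. In the same deviations r was 0.13 for Cd68 with Cd180 and 0.40 for Cd68 with Mcoln3. It was 0.66 for Cd68 with Naip2, 0.78 for Cd180 with Mcoln3 and 0.73 for Cd180 with Naip2 and with Mefv. Within the normal diet the values of Cd180 and Naip2 were marked positive and significant but not well above background on any array. Those of Mcoln3 are surrogates. The r of these genes therefore rest in that diet on values near the background for Cd180 and Naip2 and on surrogates for Mcoln3.

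Among 283 other named probes of the study's list, the 5 most like Cd68 were Sdc3, Selp, Slamf7, Vcam1 and one listed as Ifi2712a, with r of 0.98 to 1.00. Selp and Vcam1 encode P-selectin and a vascular cell adhesion molecule, both of which bind leukocytes to activated endothelium, and Slamf7 is a leukocyte surface receptor. Sdc3, a syndecan, ordered the arrays as Cd68 did and had r of 0.99 with the diet means removed. The probes most like Mcoln3 were Gbp3, BC023105, Cd300ld, 1110008P14Rik and Sirpb1a, with r of 0.97 to 0.99. Since the normal diet values of Mcoln3 are surrogates, this order is set largely by the step between the diets and not by a measured pattern within both. With the diet means removed r ran from -0.58 for Gbp3 to 0.94 for Cd300ld.

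Another 32 immune and leukocyte genes of the same list put the members beside their surroundings, and they too were chosen on this contrast. Of these, 30 were higher on the high-fat diet by at least 2-fold, as were 3.62% of all mRNA probes tested, and 2, Lax1 and Prtn3, were lower. The list they come from already asked for at least 2-fold, so these counts say nothing of immune genes as a group. The median log2 difference of the 32 was 1.18, against 0.04 over all mRNA probes tested. Spp1, which encodes osteopontin, had the largest, at 3.67 with an SE of 0.99, from 6.76 to 9.87 on the normal diet arrays and 11.3 to 14.1 on the high-fat diet arrays. Of the 32, 2 were well above background on no normal diet array and on all 3 high-fat diet arrays, as Cd180, Naip2 and Mcoln3 were. These were Cd209a, a C-type lectin of dendritic cells and macrophages, and Trim30a, an interferon-inducible protein.

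Several genes of the list belong to the inflammasome, the lysosome or the interferon response. Casp4 encodes caspase-11, which senses cytosolic lipopolysaccharide and drives a noncanonical inflammasome, and its log2 difference was 1.05 with an SE of 0.25. Il1rn, the antagonist of the receptor for interleukin-1, which inflammasomes activate, differed by 1.61 with an SE of 0.34. The lysosomal enzymes Ctsz, a cathepsin, and Acp5, an acid phosphatase, differed by 1.05 and 1.02. Cd68 differed by more than each of these 4, and whether they differ from it was not tested. The interferon-inducible Gbp3 differed by 1.78 with an SE of 0.16, and the diets stood as far apart on slide 2 alone, at 1.78.

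Of the 30 higher genes of the list, 25 were highest in high-fat diet replicate 2 among the arrays of that diet, against 37.1% of all mRNA probes tested. In normal diet replicate 2, 17 of the 30 were the lowest of their group, against 44.5%. Once high-fat diet replicate 2 was left out, 15 of the 32 were at least 2-fold higher, against 3.73% of the mRNA probes tested. Against normal diet replicate 2 alone, 26 were, and 2.98% of the mRNA probes. Markers of other leukocytes were in the list as well. Ly6g, a neutrophil marker, differed by 1.14, Icos, a costimulatory receptor of T cells, by 1.07 with 1 of 3 normal diet arrays well above background, and Cma1, a mast cell chymase, by 1.25, while Prtn3, a protease of neutrophil granules, was lower by 1.08 on the log2 scale. Their part in the differences of the members was not tested.

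**Figure D4:**
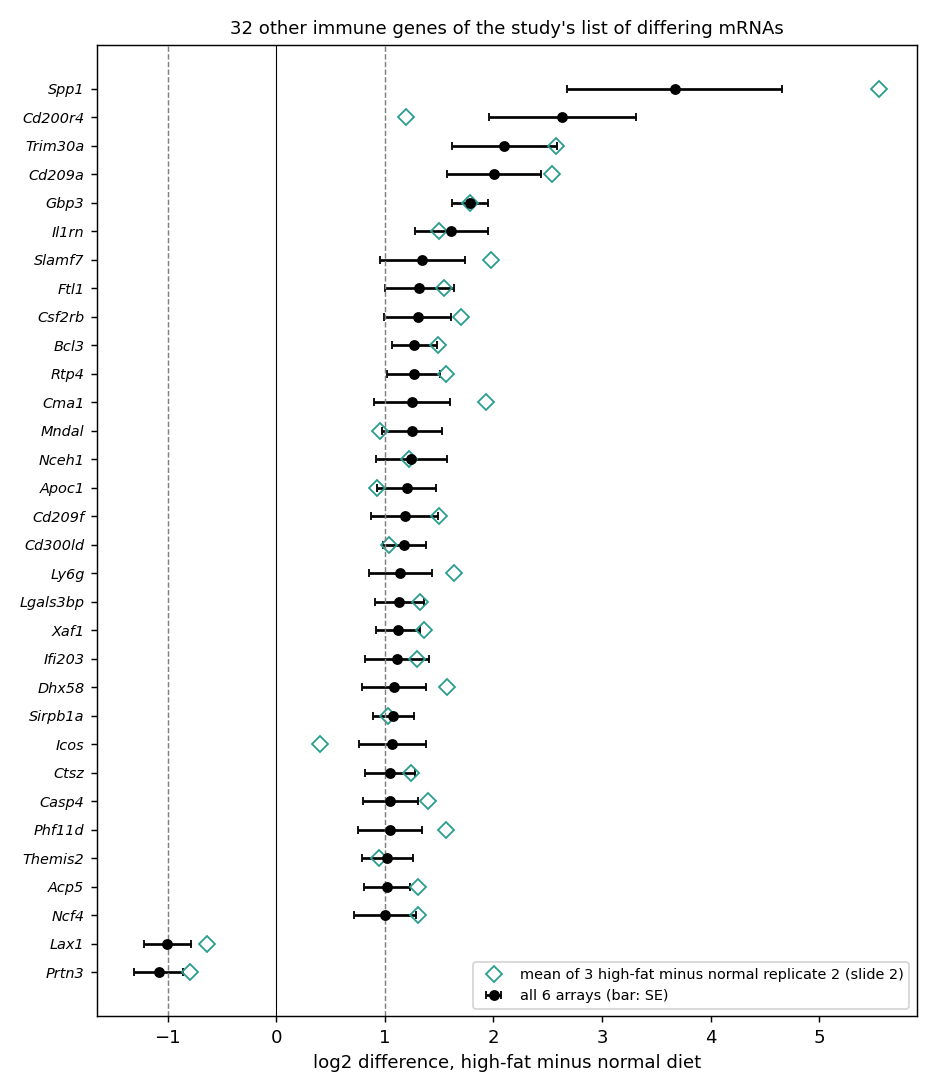
Log2 difference, high-fat minus normal diet (x axis), of 32 immune and leukocyte genes of the study's list (y axis). Black points use all 6 arrays, with bars for the SE, and open diamonds set the mean of the 3 high-fat diet arrays against normal diet replicate 2 alone, on the same slide. Spp1 is farthest from 0, at 3.67 and 5.55, Icos has 1.07 and 0.40, and Lax1 and Prtn3 lie below 0.

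The promoter table of RefSeq held a window of 300 bases around the start of transcription for all 6 members, in build GRCm38.p6. Because the members were higher together, the windows were searched on both strands for TGANTCA, the site of AP-1 factors, and for GAGGAAG, a form of the site of the myeloid factor PU.1. The AP-1 letters were found in 7.81% and the PU.1 letters in 13.6% of all 32851 windows. Cd68 held the AP-1 letters at 2 places, at -149 and -24 relative to the start, and Mcoln3 held the PU.1 letters at 1, at -130 on the opposite strand. The windows of the other 4 members held neither. These 2 windows are shown with the matches in capitals.
Cd68 (chr11:69666121-69666420, minus strand): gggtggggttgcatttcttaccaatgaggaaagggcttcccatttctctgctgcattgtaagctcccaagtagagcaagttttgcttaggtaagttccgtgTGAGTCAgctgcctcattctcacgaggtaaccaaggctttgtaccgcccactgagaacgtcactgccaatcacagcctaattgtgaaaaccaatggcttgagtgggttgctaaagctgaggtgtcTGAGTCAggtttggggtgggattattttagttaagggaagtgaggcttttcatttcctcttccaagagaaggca
Mcoln3 (chr3:146121541-146121840, plus strand): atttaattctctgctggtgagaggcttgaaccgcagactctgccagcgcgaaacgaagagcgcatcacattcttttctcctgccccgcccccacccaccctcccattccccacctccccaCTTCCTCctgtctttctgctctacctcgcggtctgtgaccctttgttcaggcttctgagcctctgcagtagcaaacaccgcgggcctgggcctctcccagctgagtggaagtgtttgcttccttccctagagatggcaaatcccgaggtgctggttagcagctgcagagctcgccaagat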

How the data were processed

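RNA of 6 aortas was labelled with cyanine 3 and hybridised to 1-colour Agilent arrays. The authors deposited the Feature Extraction output (version 10.7.1.1), with an intensity, a background and other flags for each spot, and a table of log2 values, which matched quantile-normalized signals (r of 0.999 to 1.00). The deposited p-value columns of the spots were not used. Diets and replicate numbers came from the labels.

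Here, outlier spots were left out, spots of a probe were averaged, a floor of 1 was set, and log2 values were quantile normalized. Probes well above background on all 3 arrays of at least 1 diet were kept. Differences and their SEs come from limma 3.58.1 (lmFit, eBayes) in R 4.3.3 over all kept probes, and Benjamini-Hochberg adjustment covers them all. The fit was tested on simulated data. Tables, correlations and searches of sequence used pandas 2.3.3, numpy 2.4.6 and scipy 1.17.1 in Python 3.11.15. Motifs and the windows shown were picked here.

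Members, gene lists and named genes (6 members, 32 immune genes of the study's list, 5 probes most like Cd68 and 5 most like Mcoln3) were chosen with earlier results of these data known. Symbols were paired with probes through the study's supplementary list, read from page images, where a letter can be wrong. No table used here names the other probes, so lists of cell type markers and of further pathway genes were not run. Genomic sequence was used only as the promoter windows of the RefSeq table, and no protein sequence was used. The labels and the methods name different RNA extraction kits. Separate animals are stated by the labels, and the number of arrays limits the precision. The alternatives were other scaling, background correction, spot rules, filters, tests, a slide or replicate block and each array left out.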

Additional observations from a re-analysis of the deposited data

How the results depend on the processing

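All 78 recomputed differences of the 6 members kept the direction, higher on the high-fat diet, and 9 moved by more than the spread between replicates. Many of them could not turn the sign. After quantile normalization the diets of each member did not overlap, so leaving out 1 array keeps the direction. The replicate block is balanced, and each member probe has 1 spot per array, so the spot rules leave it nearly as it was. The difference of Naip2 after normexp, 0.12, was no larger than its SE of 0.12, and its diets overlapped. With normexp and an offset of 50, Cd68 was 1.15, Clec7a 1.16, Cd180 0.25, Naip2 0.12, Mefv 0.45 and Mcoln3 0.30 on the log2 scale, 172 mRNA probes were called in place of 876, and 5 of the 32 immune genes were at least 2-fold higher in place of 30. The offset draws low signals together by construction. With the slide as a block, Cd68 was 2.87 and Clec7a 3.38, the same differences as against normal diet replicate 2 alone. Scaling by the 75th percentile gave 2.34 for Mcoln3, whose normal diet values are surrogates. The cause was not tested. With each array left out, the ranges were 1.73 to 2.51 for Cd68, 1.49 to 2.69 for Clec7a and 1.98 to 2.54 for Cd180. They were 1.08 to 1.63 for Naip2, 0.75 to 1.23 for Mefv and 2.57 to 2.74 for Mcoln3, the last on surrogate normal diet values. The mRNA probes called were 618 to 2197, the highest without normal diet replicate 2. In that limma fit 3048 mRNA probes had an adjusted p under 0.05, against 1 with all arrays. All its normal diet arrays lie on slide 1 and all its high-fat diet arrays on slide 2, so diet and slide cannot be told apart in it. The lower ends for Cd68 and Clec7a come from the same fit. The count of immune genes ran from 15 to 30, the lowest without high-fat diet replicate 2. The methods' t-test called 358 mRNA probes, 0 of them after Benjamini-Hochberg adjustment, and the filter for detection on all 6 arrays left 473. By the positive and significant flag, 5 members were detected on all 6 arrays in place of 3. A replicate block called 981 and, by the balanced design, left the difference of each member as it was. Same-numbered arrays did not deviate together (r of -0.26, -0.20 and -0.03 for numbers 1, 2 and 3), so the numbers were not taken as pairs. The tests of further pathway genes, with their slide block, were not run.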
